A study of Mus musculus with 15 samples.

Results

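RNA levels of 10 genes known for the recruitment, growth or identification of neutrophils were measured in tumors of WEHI-164, a mouse fibrosarcoma line, during intratumoral treatment with poly(I:C), a synthetic RNA that activates Toll-like receptor 3. These were chosen by name, out of 32544 entries in the deposited gene table. They comprise 4 chemokines (Cxcl1, Cxcl2, Cxcl3 and Cxcl5), the chemokine receptor Cxcr2, the growth factor Csf3 and its receptor Csf3r, and 3 genes of neutrophil proteins (S100a8, S100a9 and Retnlg). All 10 were found in the table, and 9 passed the filter on low counts, Csf3 being the exception. The tumors were grown subcutaneously in female BALB/c mice of WT genotype and freed of surrounding tissue, and each is a mixture of tumor cells and host cells. Day 0 tumors were untreated. Treated tumors received 1 µg poly(I:C) in 25 µL each day per the labels, for a planned 6 doses, and were taken on day 1, 3, 5 or 7, with 3 tumors on each of the 5 days. The study's own texts differ on the dose, so it is uncertain. No vehicle-injected or untreated tumor of a later day was analysed here, so poly(I:C), the injection and the time of tumor growth cannot be told apart. The labels do not tie the tumors to mice, and p-values measure the spread between these tumors. RNA levels in a whole tumor cannot tell fewer cells of a type from less RNA per cell.

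Neutrophils are short-lived white blood cells that leave the blood along gradients of chemokines. CXCL1, CXCL2, CXCL3 and CXCL5 belong to the chemokines with a glutamate-leucine-arginine motif, are made by macrophages, fibroblasts, epithelial and tumor cells, and bind the receptor CXCR2 on the neutrophil surface. Granulocyte colony-stimulating factor, encoded by Csf3, drives the production and survival of neutrophils through the receptor encoded by Csf3r. S100A8 and S100A9 form calprotectin, which fills the neutrophil cytosol and is also made by monocytes. Retnlg encodes a resistin-like protein made mainly by mouse neutrophils.

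The 4 chemokine genes lie in a cluster on chromosome 5 of the GRCm38 assembly, all on the plus strand. GENCODE places Cxcl5 (ENSMUSG00000029371.7) at chr5:90759360-90761624 and Cxcl3 (ENSMUSG00000029379.10) at chr5:90786103-90789600, with 24478 bases between them. Cxcl1 (ENSMUSG00000029380.11) lies at chr5:90891241-90893115 and Cxcl2 (ENSMUSG00000058427.10) at chr5:90903871-90905938, with 10755 bases between them. S100a8 (ENSMUSG00000056054.9, chr3:90668978-90670035, plus strand) and S100a9 (ENSMUSG00000056071.12, chr3:90692632-90695721, minus strand) are 22596 bases apart. Cxcr2 (ENSMUSG00000026180.8) is at chr1:74153989-74161246, Csf3r (ENSMUSG00000028859.14) at chr4:126024550-126044440, Csf3 (ENSMUSG00000038067.2) at chr11:98701263-98703629 and Retnlg (ENSMUSG00000022651.6) at chr16:48872621-48874496, all on the plus strand.

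Chemokine genes of this cluster are known targets of NF-kB, a transcription factor that Toll-like receptor 3 can activate, so the promoters were searched for its motif on both strands, spelled GGGA, then any pair of bases, T, any base and CC. RefSeq promoters on GRCm38.p6, each from 250 bases before to 50 bases after a start site, were at hand for 8 of the 10 genes. The motif was found in 4 of these 8, namely Cxcl1, Cxcl2, Cxcl3 and Csf3r, and in 4.01% of 32851 promoters of all genes. The stretches that hold the match are printed because the same letters recur in 3 neighbouring chemokine genes. Capitals mark the match, and for the chemokines also the match of the opposite strand, which overlaps it and is shifted by 1 base. All are on the plus strand, the strand of each gene.
Cxcl1, chr5:90891125-90891214: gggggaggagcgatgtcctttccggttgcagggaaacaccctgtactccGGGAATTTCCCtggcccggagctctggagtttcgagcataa
Cxcl2, chr5:90903779-90903868: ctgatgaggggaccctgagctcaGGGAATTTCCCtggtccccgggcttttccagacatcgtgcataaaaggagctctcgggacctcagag
Cxcl3, chr5:90785981-90786070: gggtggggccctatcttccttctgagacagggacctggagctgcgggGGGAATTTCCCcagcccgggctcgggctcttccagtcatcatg
Csf3r, chr4:126024509-126024548: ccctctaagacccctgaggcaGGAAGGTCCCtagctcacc

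The 3 chemokine promoters held the same 11 capital letters, at positions -71, -97 and -73 from the start sites of Cxcl1, Cxcl2 and Cxcl3. The match of Csf3r was on the opposite strand only, at position -129. No match lay in the windows of Cxcr2, S100a8, S100a9 or Retnlg. A match of letters is a description and no evidence that the factor bound there.

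Library sizes were 23.7 to 31.9 mega-counts, and a gene with no count could still have a level of up to 3 counts, which is 0.094 to 0.127 CPM (counts per mega-count of the normalised library), depending on the library. Day 3 replicate 1 stood apart from the other tumors, with a mean correlation to them of 0.884 against 0.956 or more. It also held the most RNA of skeletal muscle, a summed level of 3260 CPM over 10 muscle genes against at most 180 CPM in any other tumor. Interferon response genes, a check of treatment, had higher day 1 than day 0 values for 10 of 10 genes (median log2 fold change, 1.68, and 0.92 without day 1 replicate 3).

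Csf3r averaged 46.5 CPM over the 15 tumors, and Cxcl5, the next of the 10 genes, 7.46 CPM. Scaled by transcript length and averaged over the 15 tumors, Csf3r was the highest at 13.4 CPM per kb and Csf3 the lowest at 0.124. S100a9 came next at 9.20 and S100a8 at 5.80, followed by the chemokines Cxcl1 at 5.32, Cxcl5 at 4.74, Cxcl2 at 3.68 and Cxcl3 at 1.88. Cxcr2 lay at 1.65 and Retnlg at 0.634 CPM per kb. The name of the group was checked against other genes made almost only by neutrophils or their precursors, which were named here after their counts were seen. Ly6g, the surface protein by which mouse neutrophils are usually gated, had 0 to 5 counts in a tumor. Cxcr1, another chemokine receptor, had 0 to 2 counts, Elane, a granule protease, 0 to 1, and Ngp, a granule protein, 0 to 2. Camp, the gene of the antimicrobial peptide cathelicidin, had 0 to 6 counts. These 5 genes were at or near 0 in every tumor. Other genes of the neutrophil marker lists used below were counted more often. Ltf, which encodes lactoferrin, had 0 to 38 counts, Prtn3 0 to 36, Mpo 2 to 13 and Cd177 0 to 45. Lcn2, which encodes lipocalin-2, had 1 to 226 counts with the highest in day 1 replicate 3. Cxcr2, Csf3r, S100a8 and S100a9, which other myeloid cells can express as well, were counted in all 15 tumors.

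**Figure D1:**
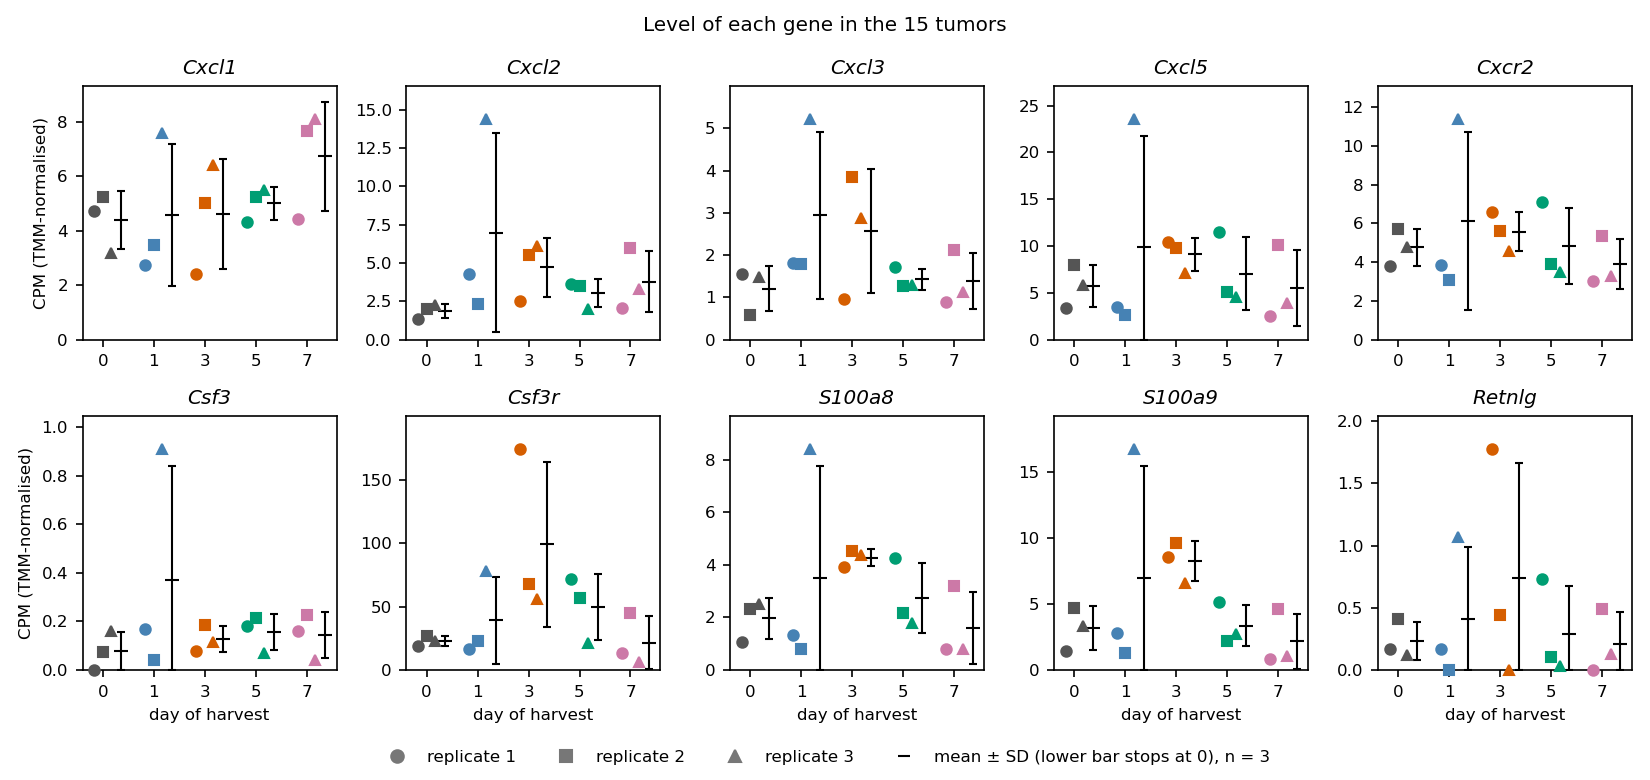
Normalised level (CPM, vertical axis from 0, a separate scale for each gene) of the 10 genes in each tumor against the day of harvest. Symbols are the 3 tumors of a day and black bars their mean ± SD; day 1 replicate 3 (blue triangle) is the highest tumor for 7 of the 10 genes, and day 3 replicate 1 (orange circle) the highest for Csf3r and Retnlg.

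Cxcl2 had the largest log2 fold changes of the 4 chemokines on days 1 and 3. Its levels were 1.35, 2.01 and 2.24 CPM on day 0, 4.28, 2.31 and 14.4 CPM on day 1, 2.54, 5.51 and 6.11 CPM on day 3, 3.62, 3.52 and 2.01 CPM on day 5, and 2.07, 5.97 and 3.30 CPM on day 7. All tumors of days 1 and 3 lay above all untreated tumors, the lowest of them by a small margin on both days, while days 5 and 7 overlapped them. The log2 fold change was 1.91 ± 0.62 (SE) on day 1, with an unadjusted p of 0.00913 by edgeR's quasi-likelihood test and an adjusted p of 1. On day 3 it was 1.34 ± 0.61, with an unadjusted p of 0.0487 and an adjusted p of 0.165. Without day 1 replicate 3, the day 1 value was 0.82. Without day 3 replicate 1, the day 3 value was 1.64.

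Cxcl3 gave lower levels than Cxcl2 with a similar order of days. It was measured at 1.55, 0.596 and 1.48 CPM on day 0, at 1.80, 1.79 and 5.22 CPM on day 1, and at 0.966, 3.86 and 2.88 CPM on day 3. Values were 1.72, 1.28 and 1.29 CPM on day 5 and 0.895, 2.13 and 1.13 CPM on day 7. The tumors of day 1 were all above those of day 0, by a small margin for 2 of the 3, and day 3 replicate 1 lay among the untreated tumors. The log2 fold change was 1.28 ± 0.58 on day 1 (edgeR, unadjusted p of 0.0459, adjusted p of 1) and 1.08 ± 0.58 on day 3 (adjusted p of 0.207). Without day 1 replicate 3 the day 1 value was 0.57.

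Cxcl5, whose product is also called LIX, showed 3.37, 7.93 and 5.88 CPM on day 0 and 3.47, 2.67 and 23.6 CPM on day 1. On day 3 the levels were 10.5, 9.78 and 7.08 CPM, on day 5 11.5, 5.05 and 4.52 CPM, and on day 7 2.52, 10.1 and 3.93 CPM. The groups overlapped on every day, since untreated replicate 2 reached the lower day 3 tumor. The day 1 log2 fold change of 0.79 ± 0.75 turned to -0.89 without day 1 replicate 3, and the day 3 value was 0.67 ± 0.75 (edgeR, adjusted p of 0.523).

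Cxcl1, whose product is also called KC, kept to a narrower range than the other chemokines. Levels were 4.72, 5.25 and 3.20 CPM on day 0, 2.74, 3.47 and 7.58 CPM on day 1, 2.42, 5.04 and 6.42 CPM on day 3, 4.32, 5.23 and 5.49 CPM on day 5, and 4.43, 7.68 and 8.11 CPM on day 7. The highest tumor was day 7 replicate 3 and the lowest day 3 replicate 1, a span of 3.36-fold, against 10.7-fold for Cxcl2. Cxcl1 overlapped with day 0 on all 4 treated days. Its log2 fold change was 0.07 ± 0.42 on both days 1 and 3 and 0.62 ± 0.42 on day 7 (edgeR, unadjusted p of 0.164, adjusted p of 1). The ratio of Cxcl2 to Cxcl1 per kb averaged 0.392 ± 0.186 (SD, n = 3) in untreated tumors, and 1.18 ± 0.547, 0.887 ± 0.0630, 0.538 ± 0.206 and 0.473 ± 0.171 after 1, 3, 5 and 7 days.

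Cxcr2, the receptor for these chemokines, had day means from 3.89 to 6.11 CPM. It stood at 3.81, 5.73 and 4.76 CPM on day 0, 3.87, 3.07 and 11.4 CPM on day 1, and 6.56, 5.59 and 4.59 CPM on day 3. Day 5 gave 7.10, 3.91 and 3.48 CPM and day 7 gave 3.01, 5.36 and 3.30 CPM. Each treated day overlapped with day 0. The log2 fold changes lay between -0.29 on day 7 and 0.36 on day 1, each with an SE of 0.45, and the day 1 value was -0.45 without day 1 replicate 3.

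Csf3 was close to the limit of detection. It had 0, 2 and 4 counts on day 0, 5, 1 and 28 counts on day 1, 2, 5 and 3 counts on day 3, 5, 6 and 2 counts on day 5, and 4, 6 and 1 counts on day 7. In 7 of the 15 tumors the count was 3 or less, so no fold change is given. Day 1 replicate 3, at 0.907 CPM, was the highest tumor, and the next highest had 0.228 CPM.

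Csf3r, the receptor of granulocyte colony-stimulating factor, was the gene of the 10 with the largest difference. Its levels were 19.1, 27.0 and 23.2 CPM on day 0, 16.5, 22.6 and 78.0 CPM on day 1, 174, 67.5 and 55.8 CPM on day 3, 72.0, 56.6 and 21.0 CPM on day 5, and 13.6, 45.3 and 6.27 CPM on day 7. All day 3 tumors lay above all tumors of days 0 and 7, and on days 1 and 5 the tumors were split between levels near day 0 and levels near day 3. The day 3 log2 fold change was 2.10 ± 0.77, with an unadjusted p of 0.0174 and an adjusted p of 0.122 by edgeR. DESeq2 gave it an adjusted p of 0.0321, and that call was lost without any of the 3 untreated tumors or without day 3 replicate 1 or 2. Without day 3 replicate 1 the edgeR value was 1.42. Day 7 was lower than day 3 by a log2 fold change of -2.19 ± 0.77 (edgeR, adjusted p of 0.0904; DESeq2, adjusted p of 0.0199), and without day 3 replicate 1 by -1.50.

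Both receptors are found on blood neutrophils, and the ratio of Csf3r to Cxcr2 was set beside their levels. Per kb, Csf3r stood at 4.26 ± 0.139 times Cxcr2 on day 0 and at 14.8 ± 7.25 times on day 3 (SD, n = 3). The ratio spanned 1.66 in day 7 replicate 3 to 23.2 in day 3 replicate 1. On day 3 the other tumors were at 10.6 and 10.6, above all 3 untreated tumors, and day 3 replicate 1 lay apart from them.

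S100a8 and S100a9, the calprotectin subunits, had similar profiles. S100a8 was at 1.08, 2.31 and 2.52 CPM on day 0, 1.34, 0.797 and 8.39 CPM on day 1, 3.90, 4.52 and 4.39 CPM on day 3, 4.28, 2.17 and 1.80 CPM on day 5, and 0.813, 3.19 and 0.794 CPM on day 7. S100a9 was at 1.42, 4.73 and 3.32 CPM on day 0, 2.84, 1.28 and 16.7 CPM on day 1, 8.53, 9.63 and 6.61 CPM on day 3, 5.12, 2.20 and 2.76 CPM on day 5, and 0.854, 4.60 and 1.04 CPM on day 7. For both genes the day 3 tumors were all above the untreated and all above the day 7 tumors, and on day 1 a single tumor held the high value.

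The day 3 log2 fold change was 1.12 ± 0.79 for S100a8 (edgeR, unadjusted p of 0.179, adjusted p of 0.316) and 1.39 ± 0.85 for S100a9 (unadjusted p of 0.128, adjusted p of 0.262). Both values were positive without any single tumor, from 0.82 to 1.34 for S100a8 and from 1.04 to 1.80 for S100a9. From day 3 to day 7 the values were -1.41 ± 0.79 for S100a8 (edgeR, adjusted p of 0.204) and -1.92 ± 0.87 for S100a9 (unadjusted p of 0.0464, adjusted p of 0.136). On day 1, the values of 0.84 and 1.14 turned to -0.87 and -0.61 without day 1 replicate 3. The ratio of S100a8 to S100a9 per kb lay between 0.489 and 1.05 in the 15 tumors, with a median of 0.710.

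Retnlg was counted in 12 of 15 tumors and at 3 counts or fewer in 7. Its counts were 5, 11 and 3 on day 0, 5, 0 and 33 on day 1, 44, 12 and 0 on day 3, 20, 3 and 1 on day 5, and 0, 13 and 3 on day 7. A high and an absent value thus fell within the same day, and the day 3 log2 fold change of 1.64 ± 1.50 went to -0.05 without day 3 replicate 1.

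**Figure D2:**
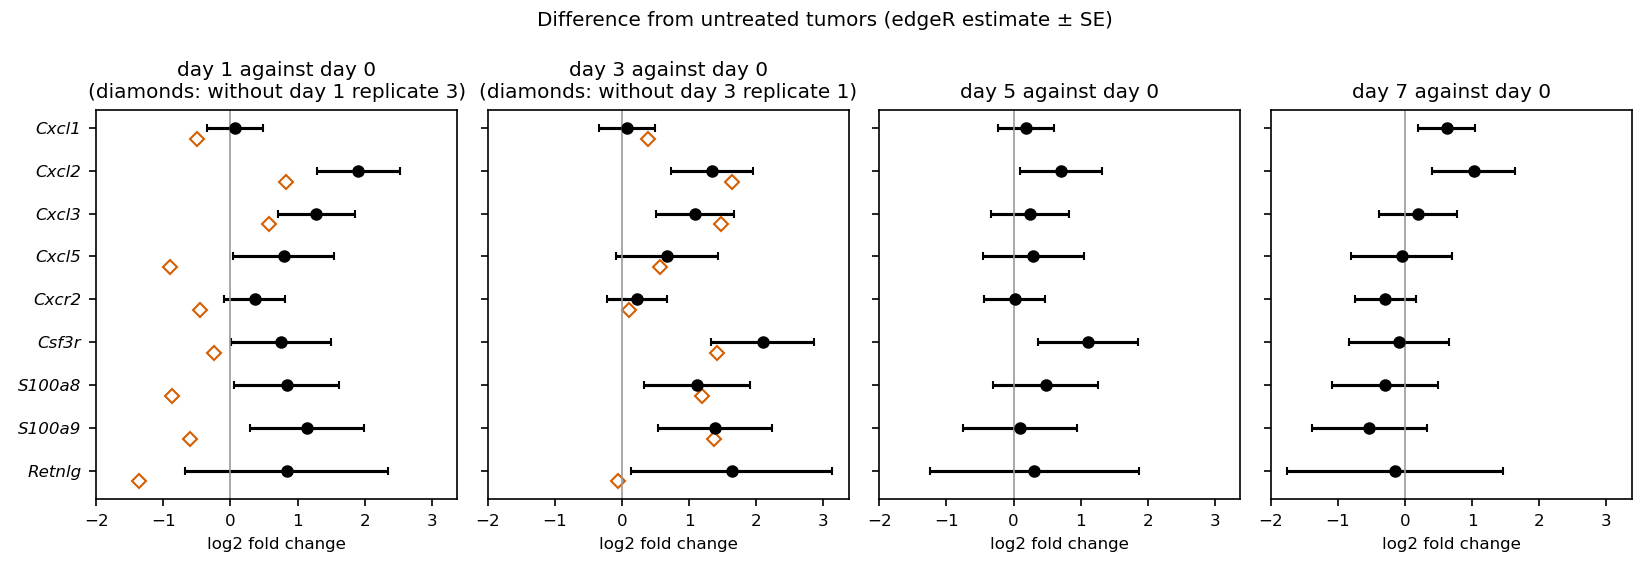
Log2 fold change against day 0 (horizontal axis, edgeR estimate ± SE, n = 3 tumors a day) for the 9 genes tested, with 1 panel for each treated day. Open diamonds show the value without day 1 replicate 3 (first panel) or without day 3 replicate 1 (second panel); on day 1 the sign turned for 7 of the 9 genes, and on day 3 for Retnlg.

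No gene of the group passed edgeR's adjusted threshold of 0.05 in any comparison, and neither did any of the 15494 genes tested (0.0% in each). At an unadjusted p under 0.05, day 1 had 2 of 9 higher (Cxcl2 and Cxcl3) against 2.18% of all genes higher, and none lower against 0.981%. Day 3 had 2 of 9 higher (Cxcl2 and Csf3r) against 18.3% of all genes, and none lower against 11.7%. Days 5 and 7 had none in either direction, where 1.41% and 1.05% of all genes were higher and 3.39% and 1.02% lower. Between days 7 and 3, Csf3r and S100a9 were lower on day 7, where 22.6% of all genes were lower and 12.9% higher. DESeq2 called 1 of the 9 on day 3 (Csf3r, higher), where it called 9.43% of all genes higher and 4.09% lower. It called 1 between days 7 and 3 (Csf3r, lower on day 7), where it called 15% of all genes lower and 5.91% higher. It called 0 of the 9 on day 1, with 0.24% of all genes higher and 0.0195% lower, 0 on day 5, with 0.013% higher and 0.0519% lower, and 0 on day 7, with 0.0195% higher and 0.013% lower. In the joint test of the treated days, 0 of 9 had an unadjusted p under 0.05 by edgeR, against 16.2% of all genes, and DESeq2 called 0 of 9 against 7.84%.

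The share of genes whose groups did not overlap was read in the same way. On day 1, 2 of 9 lay above all untreated tumors (Cxcl2 and Cxcl3), as did 5.76% of all genes, and 0 lay below, as did 6.61%. On day 3, 4 of 9 lay above (Cxcl2, Csf3r, S100a8 and S100a9), as did 19.4% of all genes, and 0 below, as did 19.0%. None of the 9 was apart from day 0 on day 5, where 6.89% of all genes lay above and 10.9% below, or on day 7, where 5.02% lay above and 6.26% below. Between days 7 and 3, Csf3r, S100a8 and S100a9 were lower in every day 7 tumor than in any day 3 tumor, as were 18.4% of all genes, and 0 were higher, as were 14.6%.

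Over the 9 genes, the median log2 fold changes at 1, 3, 5 and 7 days were 0.84, 1.12, 0.30 and -0.09, while the median of all genes lay between -0.02 and 0.0015. The comparisons share the untreated tumors. Leaving out day 1 replicate 3 gave a day 1 median of -0.50, and leaving out day 3 replicate 1 a day 3 median of 1.19. Day 1 replicate 3 was the highest tumor for Cxcl2, Cxcl3, Cxcl5, Cxcr2, Csf3, S100a8 and S100a9. It also held 124 CPM of erythroid genes, against 15.3 and 13.6 CPM in the other day 1 tumors, and 3593 CPM of interferon response genes, against 1217 and 1047 CPM. The part of these in the values of that tumor was not tested. In the order of day means of each gene, no pair of neighbouring days was free of overlap.

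**Figure D3:**
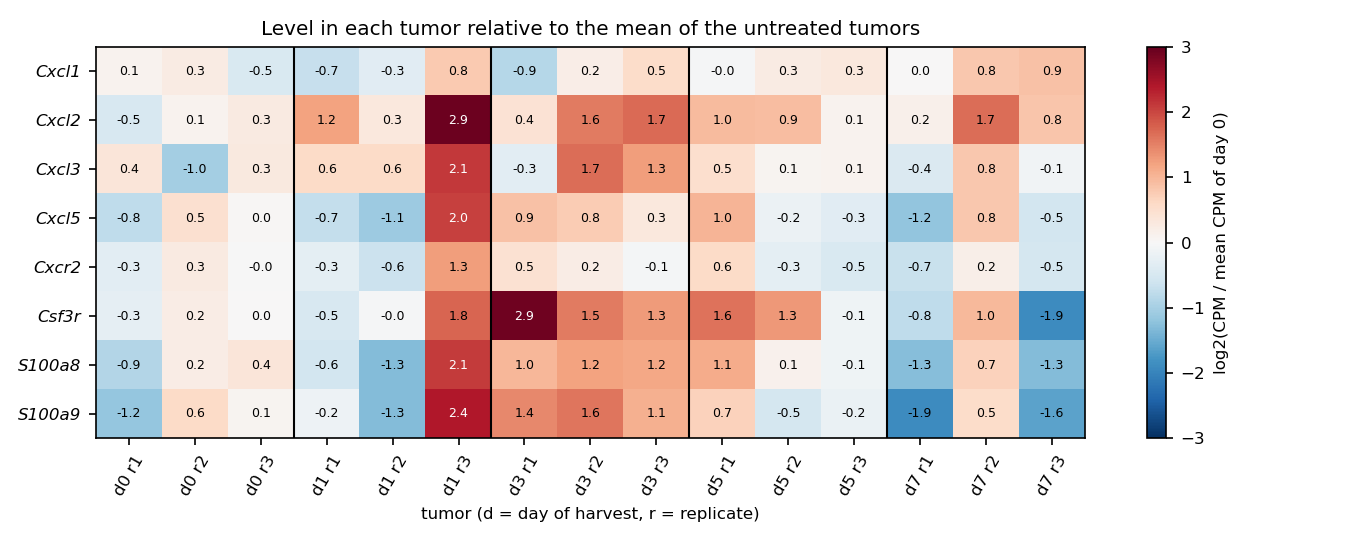
Log2 ratio of the level in each tumor to the mean of the 3 untreated tumors (colour and printed value) for the 8 genes counted in all 15 tumors. Columns are tumors (d, day; r, replicate); day 1 replicate 3 is above the untreated mean for all 8 genes, and on day 3 Csf3r, S100a8, S100a9, Cxcl2 and Cxcl5 are above it in all 3 tumors.

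Across the 15 tumors, Cxcl5, Cxcr2, S100a8 and S100a9 varied together. Pearson's r of log2 CPM was 0.963 between Cxcl5 and Cxcr2, 0.961 between S100a8 and S100a9, and 0.944 between Cxcl5 and S100a8. Without day 1 replicate 3 and day 3 replicate 1 these were 0.941, 0.946 and 0.921. Cxcl2 and Cxcl3 formed a looser pair, at 0.798 with all tumors and 0.676 without these tumors. Cxcl1 stood apart from the other genes, with r from -0.151 with Csf3r to 0.454 with Cxcl2. Without day 1 replicate 3 and day 3 replicate 1, r of Cxcl1 was 0.305 with Cxcl2, 0.003 with Cxcl3 and 0.341 with Cxcl5. The tumors share their libraries and harvest days, and these correlations are descriptions.

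**Figure D4:**
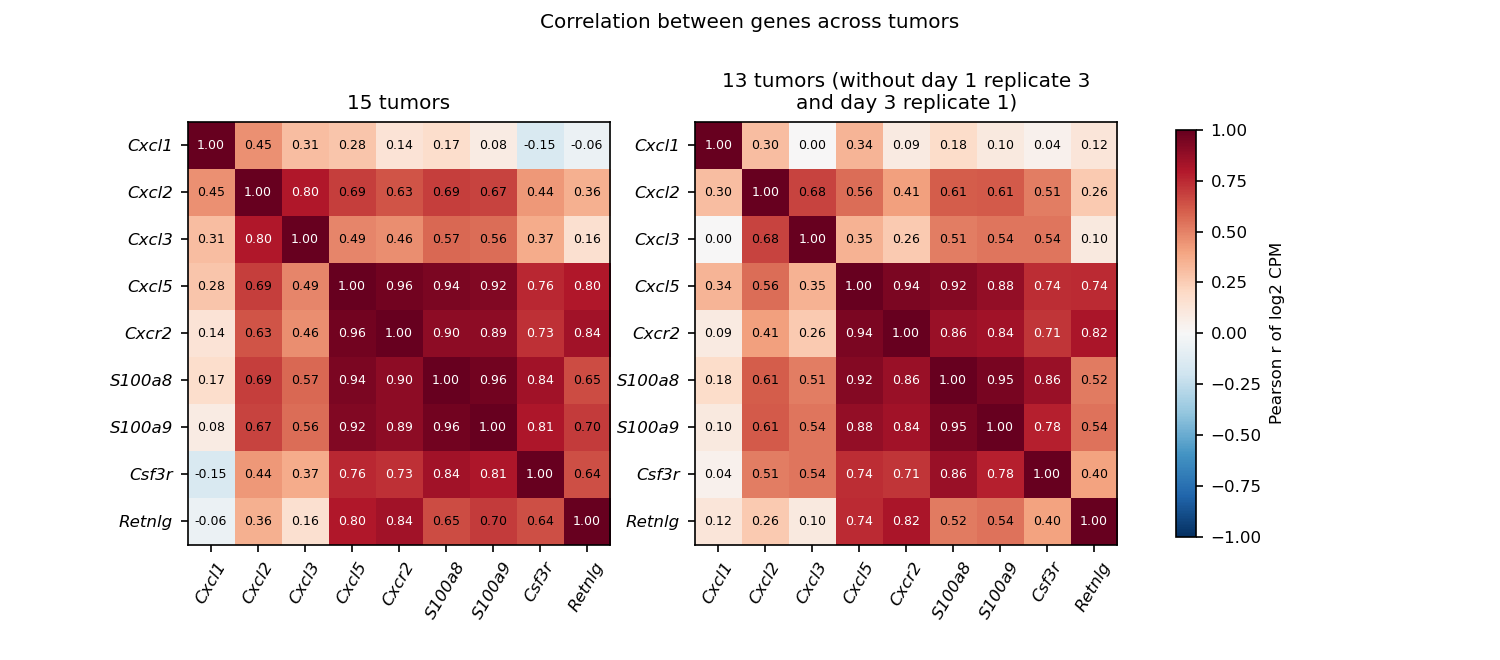
Pearson's r of log2 CPM between the 9 genes tested, over 15 tumors (left) and over 13 (right). Cxcl5, Cxcr2, S100a8 and S100a9 form a block of high values in both panels, and the row of Cxcl1 is near 0 to 0.45.

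The 3 genes most like each member over the 15 tumors were listed from all genes tested. For Cxcl5 they were Cxcr2, S100a8 and S100a9, with r of 0.963, 0.944 and 0.922, so this chemokine gene was closest to the myeloid markers and not to the other chemokines. For Cxcr2 they were Cxcl5, Trim30b and Ptx3, with r from 0.911 to 0.963. S100a8 was most like S100a9, Cxcl5 and Lbp, and S100a9 most like S100a8, Trim30b and Itln1, with r of 0.926 or more. Csf3r was most like Nod1, Acvrl1 and Ppm1h, with r of 0.990, 0.987 and 0.987. Cxcl2 was most like Tinf2, Lhx2 and Cmtr1, with r up to 0.868, Cxcl3 most like S100a7a, Cmtr1 and Comtd1, with r up to 0.921, and Cxcl1 most like Eaf1, Vps37b and Dusp10, with r up to 0.844. Retnlg was most like Galnt18, Tbxa2r and Alox15, with r up to 0.924.

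Further neutrophil genes were counted from lists chosen with earlier results of these data known. Of 27 surface and cytosolic markers, 19 were tested. On day 3 their median log2 fold change was 1.44, and 1.20 without day 3 replicate 1. At an unadjusted p under 0.05, 8 of the 19 were higher and 1 lower, beside 18.3% of all genes higher and 11.7% lower. The most abundant of them, Acod1, which encodes the enzyme that makes itaconate, averaged 22.7 ± 10.7 CPM on day 0 and 81.1 ± 26.7 CPM on day 3. G0s2, which encodes an inhibitor of lipolysis, had the lowest joint p of this list (0.0350, edgeR, adjusted p of 0.292). Its day 3 levels were 3.54, 1.36 and 0.467 CPM, highest in day 3 replicate 1, and its day 0 levels 0.135, 0.409 and 0.280 CPM. Trem1, a receptor that amplifies inflammatory signals, went the other way, at -0.92 ± 0.33 on day 3 (edgeR, unadjusted p of 0.0157, adjusted p of 0.120).

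Of 18 granule and oxidase genes, 12 were tested. Their day 3 median log2 fold change was 0.96, and 0.69 without day 3 replicate 1, with 5 of 12 higher and 0 lower at an unadjusted p under 0.05 beside the same 18.3% and 11.7% of all genes. Lyz2, the lysozyme gene that macrophages also express, was the most abundant, and Cybb, the catalytic subunit of the phagocyte oxidase, had the lowest joint p (0.0183, edgeR, adjusted p of 0.292), with a day 3 log2 fold change of 1.69 ± 0.53. From day 3 to day 7, 8 of these 12 and 8 of the 19 surface markers were lower at an unadjusted p under 0.05, beside 22.6% of all genes, and none was higher, beside 12.9%.

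Of 5 further ligands and receptors of this chemokine family, Ppbp and Cxcr1 were too low to test. Among the 3 tested, Pf4, which encodes platelet factor 4, averaged 25.0 ± 12.4 CPM on day 0 and 31.7 ± 12.0 CPM on day 3. Ackr1, a decoy receptor of venules and red cells, was at 6.44, 1.76 and 0.311 CPM on day 3, highest in day 3 replicate 1, and at 0.236, 0.447 and 0.280 CPM on day 0, so that day 3 replicate 3 lay among the untreated tumors. Of 16 growth factor and cytokine genes found, 14 were tested, with a day 3 median of 0.12 and 2 of 14 higher and 1 lower at an unadjusted p under 0.05, shares that were not above the 18.3% and 11.7% of all genes. Csf1, the macrophage growth factor, was the most abundant and had a day 3 log2 fold change of -0.08 ± 0.17. Il1r1, the receptor of interleukin-1, was the gene lower on day 3, at -0.59 ± 0.15 (edgeR, unadjusted p of 0.00222, adjusted p of 0.115; DESeq2, adjusted p of 0.0180). Il17a, a cytokine known to induce these chemokines, had at most 1 count in a tumor.

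Markers of macrophages and mast cells moved with several of these values. On day 3, 10 of 11 macrophage genes were higher at an unadjusted p under 0.05, beside 18.3% of all genes, with a median log2 fold change of 1.56, and 1.00 without day 3 replicate 1. Their summed level was 3410 to 3795 CPM in untreated tumors, and 2554 to 5372, 6120 to 17847, 3664 to 7781 and 2164 to 5212 CPM after 1, 3, 5 and 7 days. Of the monocyte list, 6 of 11 were higher and 2 lower on day 3 at the same threshold, beside 18.3% and 11.7% of all genes. The summed level of this list, in which Fn1 was the most abundant gene, averaged 2691 CPM on day 0 and 2625 CPM on day 3. Fn1, which is also on the fibroblast list, had the lowest day 3 log2 fold change of the list, -0.90. Ly6c2 had the highest, 2.34, and the lowest joint p (0.00508, edgeR, adjusted p of 0.292). Its levels were 11.4, 19.0 and 15.1 CPM on day 0 and 100, 92.7 and 38.0 CPM on day 3. Of the eosinophil and mast cell list, 8 of 8 tested were above 0 with a median of 1.23, and 0.78 without day 3 replicate 1, and none was at an unadjusted p under 0.05. Its most abundant gene was Tpsb2, a mast cell gene. The eosinophil genes Epx, with 0 to 1 counts, and Prg2, with 0 to 13, were too low to test. Siglecf and Ccr3 were low and, in day 3 replicate 3, lay within the range of the untreated tumors. Across the 15 tumors, r with the summed macrophage genes was 0.94 for Csf3r, 0.68 for S100a8, 0.64 for S100a9, 0.58 for Cxcr2, 0.62 for Cxcl5, 0.22 for Cxcl2, 0.13 for Cxcl3 and -0.24 for Cxcl1. Without day 3 replicate 1 these were 0.94, 0.78, 0.64, 0.58, 0.66, 0.46, 0.46 and 0.21 in the same order of genes, so the sign for Cxcl1 rested on that tumor. With the summed surface and cytosolic neutrophil markers, r was 0.93 for Csf3r, 0.91 for S100a8, 0.85 for S100a9 and Cxcl5, and 0.08 for Cxcl1. For Cxcl2 and Cxcl3 it was 0.61 and 0.50. The summed interferon response genes gave 0.78 for Cxcl2, 0.73 for Cxcl3, 0.76 for S100a9, 0.66 for Csf3r and 0.04 for Cxcl1. Without day 1 replicate 3 these were 0.62, 0.58, 0.65, 0.66 and -0.26. With the summed eosinophil and mast cell genes, r was 0.89 for Csf3r, 0.85 for S100a8, 0.86 for S100a9, 0.76 for Cxcl5 and -0.30 for Cxcl1. The summed monocyte genes, in which Fn1 weighs most, gave lower values. They were 0.35 for Csf3r, 0.09 for S100a8, 0.10 for S100a9, 0.15 for Cxcl5 and -0.44 for Cxcl1. Without day 3 replicate 1 these were -0.05, -0.10, -0.16, -0.03 and -0.13 in the same order of genes. The part of macrophages, monocytes or other cells in the levels of the 10 genes was not tested.

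**Figure D5:**
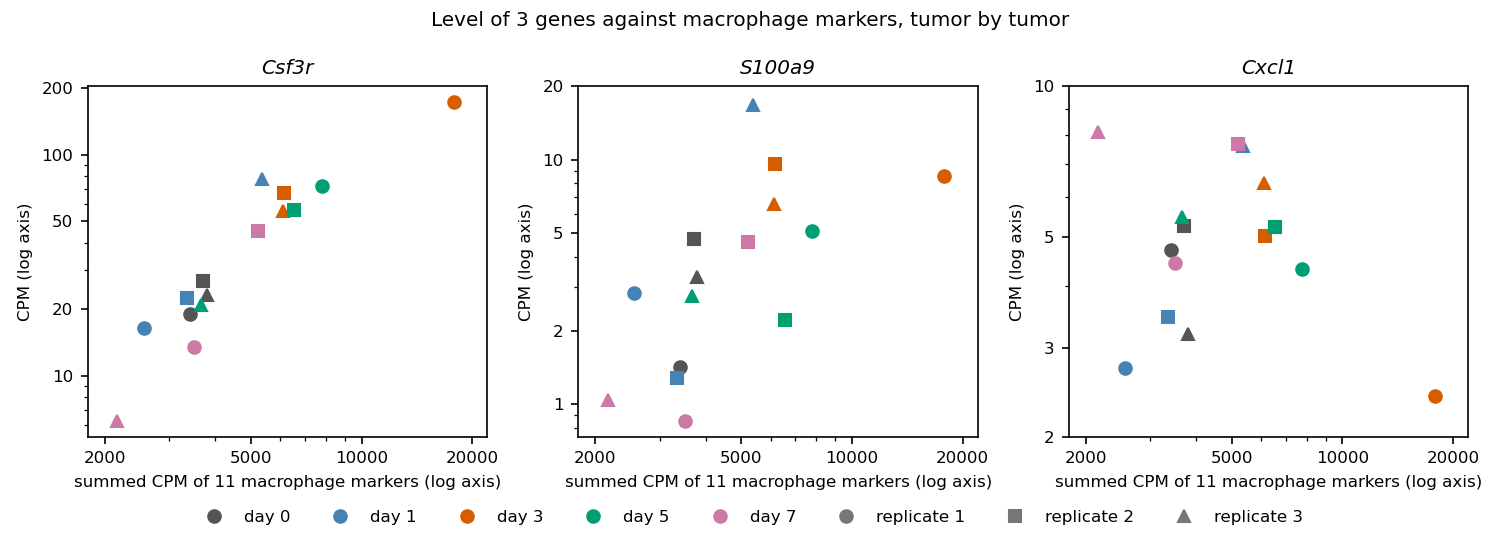
Level of Csf3r, S100a9 and Cxcl1 (CPM, log axis) in each tumor against the summed level of 11 macrophage genes (CPM, log axis); colours are days and symbols replicates. Csf3r follows the macrophage genes with r = 0.94, S100a9 with r = 0.64, and Cxcl1 has r = -0.24, which is 0.21 without day 3 replicate 1.

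Of the lists of other tissues, those of muscle and adipocytes differed most in day 3 replicate 1. The muscle genes had a day 3 median log2 fold change of 3.02 that was -0.25 without day 3 replicate 1, and the adipocyte genes 2.01 and 0.17. That tumor held the highest Csf3r and Retnlg and the lowest Cxcl1. On day 7, 5 of 5 erythroid genes were higher at an unadjusted p under 0.05, beside 1.05% of all genes, with a median of 3.19. Their sum was 29.0, 147 and 221 CPM in the 3 tumors, of which the last also held the highest Cxcl1. All 3 lay above the 9.49 to 22.0 CPM of day 0. Platelet, keratinocyte and fibroblast lists had day 3 medians of 0.35, -0.11 and 0.71, and without day 3 replicate 1 of 0.29, 0.072 and -0.17. Only 3 of the 9 keratinocyte genes were tested, so that median leaves out most of the list. Among the untested, Krt14 reached 470 counts, Krt5 106 and Sprr1b 65, all of them in day 3 replicate 3. Elsewhere their counts did not exceed 6, 1 and 2. The summed keratinocyte list came to 45.5 CPM in day 3 replicate 3, beside 8.53 and 14.0 CPM in day 3 replicates 1 and 2. The part of these tissues in the values of the neutrophil genes was not tested.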

How the data were processed

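Poly(A) RNA of 15 tumors was sequenced by the authors as 100 base single-end reads, quantified with kallisto on GRCm38 and summed to genes with tximport. As deposited by the authors, the values are estimated counts, whole numbers with 1 column a tumor, and kallisto divides reads shared by near-identical transcripts, so paralogs such as those of the chemokine cluster rest on that division. Groups came from the day and replicate labels. Here, 1 entry whose name is a date (at most 0.0268% of a tumor's counts) was left out, and genes past the study's CPM filter in at least 3 tumors (about 8.68 to 11.7 counts) were kept, which left 15494. All 15 tumors entered 1 quasi-likelihood model of harvest day in edgeR 4.0.16 (R 4.3.3) with TMM factors. F tests were two-sided, p-values were adjusted over the tested genes by the Benjamini-Hochberg method, and the threshold was 0.05. SE is the log2 fold change divided by the square root of F. DESeq2 1.42.0 was an alternative. CPM is TMM-normalised, and correlations use log2 CPM with a prior count of 2. For a summed list, log2 of its summed CPM plus 1 was used, in which abundant genes weigh most. Counting limits cover counting error only. The edgeR script was tested on simulated data.

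Tumors with the same replicate number were treated as unpaired. Among 30 pairs with the same number, r of the deviations from the day means ran from -0.62 to 0.51. It was above 0.1 in 9, and among replicate 3 of days 3, 5 and 7 it was 0.49, 0.51 and 0.48. These values cannot exclude a shared batch. No replicate of a day was a repeat of another: chi-square per degree of freedom was 9.56 or more. Members and lists were chosen with earlier results of these data known. Named genes came from the members, the 3 genes most like each member, and genes at the end of a range. The most abundant gene and the gene with the lowest joint p of each list could also be named, but not all were. Some further genes were named for their counts. Transcript lengths are those of the principal transcript in GENCODE M21. Alternatives were other scaling factors, no filter, a fit of the 2 days compared, a replicate block and leaving out each tumor.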

Additional observations from a re-analysis of the deposited data

How the results depend on the processing

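RLE factors, library totals alone, no filter and a fit of the 2 days compared changed no call and no sign of a member, and edgeR called 0 members under each of them and without any of the 15 tumors. Retnlg failed the filter in 3 of the 5 fits of 2 days. DESeq2 called 1 member (Csf3r) on day 3 and 1 (Csf3r) between days 7 and 3. DESeq2 without each tumor in turn, added after the data were seen, called 0 to 2 members on day 3: 2 without day 1 replicate 3 (Csf3r and Cxcl2) and 0 without any untreated tumor or day 3 replicates 1 and 2. Of the genes of the other lists, edgeR called 0, DESeq2 69, and edgeR without a single tumor 0 to 36, with 36 without day 3 replicate 3 and 6 without day 1 replicate 3. Of the 27 genes most like the members, 11 were kept without day 3 replicate 1, 14 without day 1 replicate 3 (added) and 6 with Spearman's rho. With the replicate block, edgeR called 0 members, and Cxcl1 went to -0.081 on day 1 and -0.068 on day 3 with no other sign turned. The tumors of a block are known to share only a number. The cause of these differences was not tested.

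Leaving out single tumors turned the sign of 19 of the 45 member log2 fold changes, all 19 against day 0 and none of them called. On day 1, where day 1 replicate 3 set the lowest value, the ranges were -0.50 to 0.33 for Cxcl1, -0.89 to 1.24 for Cxcl5, -0.45 to 0.68 for Cxcr2, -0.24 to 1.12 for Csf3r, -0.87 to 1.31 for S100a8, -0.61 to 1.63 for S100a9 and -1.36 to 1.50 for Retnlg. On day 3 they were -0.24 to 0.38 for Cxcl1 and -0.053 to 2.30 for Retnlg. On day 5 they were -0.083 to 0.46 for Cxcl3, -0.26 to 0.61 for Cxcl5, -0.37 to 0.21 for Cxcr2, -0.34 to 0.51 for S100a9 and -1.64 to 0.98 for Retnlg. On day 7 they were -0.26 to 0.43 for Cxcl3, -0.83 to 0.30 for Cxcl5, -1.22 to 0.35 for Csf3r, -1.29 to 0.030 for S100a8 and -1.83 to 0.51 for Retnlg. The other 26 kept their sign under every alternative run. Csf3, with at most 28 counts in a tumor, and Retnlg, with at most 44, are limited by depth.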
